A study of Mus musculus with 17 samples.

Results

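Ugt8a, Gal3st1, Fa2h, Cers2, Elovl1 and Elovl7 encode the enzymes that build the sphingolipids of myelin. They were chosen by symbol from a table of TPM values (read counts scaled by transcript length and then to 1000000 per library) in mouse cortex, and all 6 were found among its 55453 distinct gene symbols. The choice was made with earlier results of these data known. None was at 0 in any mouse, and all 6 were among the 16265 genes with a mean of at least 1 TPM that were tested.

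Galactosylceramide and its sulfated form, sulfatide, are the typical glycolipids of the myelin sheath, which oligodendrocytes wrap around axons. Each consists of a ceramide, often with a very long and 2-hydroxylated fatty acid chain, and a galactose head group. Elovl1 and Elovl7 are elongases that lengthen fatty acyl chains, Fa2h hydroxylates them, Cers2 joins very long chains to the sphingoid base to give ceramide, Ugt8a adds the galactose, and Gal3st1 adds the sulfate.

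RNA-seq was performed on bulk cortex of male C57BL/6J mice carrying a change in the X-linked gene Hnrnph2, which encodes an RNA-binding protein, and of wild-type male littermates. KO mice (n = 3) carried a frameshift allele that the study describes as subject to nonsense-mediated decay, and R206W mice (n = 3) carried a knockin missense allele. Each of these lines had 3 wild-type controls, and all 12 mice were 8 weeks old. P209L knockin mice (n = 3) and their wild-type controls (n = 2 analysed here) were 3 weeks old. All mutant males were hemizygous, and the allele was present in every cell type, so the bulk values mix all cells of the cortex. Fewer cells of a type and less RNA per cell cannot be told apart in such samples. The P209L line was the only line at 3 weeks, so line and age cannot be told apart either.

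Differences were taken between group means of log2(TPM + 1) and tested with limma in a fit of all 17 mice, with p adjusted by Benjamini-Hochberg over all 16265 genes and a threshold of 0.05. Hnrnph2 stood at 23.1 ± 1.59 TPM in KO mice and at 122 ± 35.7 TPM in their controls (SD, n = 3 each), which matched the labels (log2 difference -2.30, adjusted p = 8.64e-06, limma), and it did not pass the test in R206W or P209L mice. KO control 1 stood apart from the other mice. Mitochondrially encoded transcripts took 20.1% of its TPM, against 10.7% to 15.4% in the other 16 mice, and the share of its 10 highest genes was 36.5%, compared with 19.4% to 29.3% elsewhere. The 6 genes summed to 85.2 TPM in this mouse and to between 106 and 178 TPM in the others. Every marker of mature oligodendrocytes in a list of 12 (such as Mbp and Mobp, which encode proteins of compact myelin) was above 0 in all groups, and the list summed to between 2631 and 6538 TPM per mouse.

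Per unit of transcript length, Cers2 had the highest mean level over the 17 mice at 44.9 TPM. Elovl1 followed at 26.5 TPM, Ugt8a at 25.6 TPM and Fa2h at 13.7 TPM. Gal3st1 at 8.04 TPM and Elovl7 at 6.69 TPM were the lowest. The myelin structural markers were far more abundant, with mean levels of 1691 TPM for Mbp and 509 TPM for Mobp.

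The 6 genes lie on 5 chromosomes in the GENCODE M21 annotation of GRCm38, and all are annotated as protein coding. Ugt8a (ENSMUSG00000032854.12) spans chr3:125865271-125938619 on the minus strand. Gal3st1 (ENSMUSG00000049721.14) spans chr11:3983636-3999326 on the plus strand, and Fa2h (ENSMUSG00000033579.16) spans chr8:111345135-111393824 on the minus strand. Cers2 (ENSMUSG00000015714.11) spans chr3:95314791-95323599, Elovl1 (ENSMUSG00000006390.15) spans chr4:118428093-118432953 and Elovl7 (ENSMUSG00000021696.9) spans chr13:108214404-108285683, each on the plus strand.

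RefSeq promoter windows (build GRCm38.p6) were at hand for 5 of the 6 genes, Fa2h being the exception. The 250 bases upstream of the start are shown for Ugt8a, Gal3st1 and Cers2, the genes whose level differed between control mice of 3 and 8 weeks. Capitals mark matches, on either strand, to GGGCGG (the GC box, CCGCCC on the other strand) or to ACAATG (a core of the motif bound by SOX factors such as SOX10).
Ugt8a, chr3:125938653-125938902, minus strand: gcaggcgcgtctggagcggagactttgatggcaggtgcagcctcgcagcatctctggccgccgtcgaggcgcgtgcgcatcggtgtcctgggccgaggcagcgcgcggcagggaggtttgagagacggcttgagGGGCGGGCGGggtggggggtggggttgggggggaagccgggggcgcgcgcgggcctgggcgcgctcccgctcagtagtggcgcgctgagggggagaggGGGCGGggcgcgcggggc
Gal3st1, first of 3 starts, chr11:3983386-3983635, plus strand: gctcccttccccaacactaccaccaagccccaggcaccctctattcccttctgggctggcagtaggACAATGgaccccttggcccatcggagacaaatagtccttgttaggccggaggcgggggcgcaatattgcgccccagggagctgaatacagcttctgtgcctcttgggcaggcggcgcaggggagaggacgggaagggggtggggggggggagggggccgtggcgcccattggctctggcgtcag
Cers2, first of 2 starts, chr3:95314940-95315189, plus strand: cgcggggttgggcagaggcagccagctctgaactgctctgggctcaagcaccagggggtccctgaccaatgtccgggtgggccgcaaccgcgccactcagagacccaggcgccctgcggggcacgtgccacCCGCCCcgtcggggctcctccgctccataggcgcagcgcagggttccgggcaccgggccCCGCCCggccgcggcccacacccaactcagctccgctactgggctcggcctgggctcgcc
These windows were rich in G and C, at 76.8% for Ugt8a, 65.6% for Gal3st1 and 74.8% for Cers2, where the median over 32851 promoter windows was 52.4%. GGGCGG occurred 3 times upstream of Ugt8a, with 2 of the matches overlapping, and 2 times upstream of the first start of Cers2 but not of its second start. It also occurred in the windows of Elovl1 and Elovl7, and in 35.66% of all windows. ACAATG occurred in the window of Gal3st1 and of no other member, and in 12.57% of all windows. Neither ACAAAG (another SOX core, in 18.71% of all windows), nor CTGGCAC or CTGGTAC (the 2 forms searched for the oligodendrocyte factor MYRF, in 5.01% and 2.24%), nor TATAAA (the TATA box, in 13.62%) occurred in any window of the 5 genes. Shares were counted over windows of 250 bases before to 50 bases after each start.

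In P209L cortex all 6 genes were lower than in the P209L controls, with no overlap between the 3 mutant and the 2 control mice. The mutant means were between 58.7% (Fa2h) and 78.8% (Gal3st1) of the control means. None of the 6 passed the adjusted threshold, which 0.0984% of all genes passed. Genes that were lower in P209L with no overlap made up 10.7% of all genes tested. An unadjusted p under 0.05 with a lower level in P209L was reached by 5 of the 6 genes, against 2.90% of all genes. The genes were chosen with earlier results of these data known and share the same 2 controls, so this count is not an independent test. They also varied together between mice.

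Among the enzymes of the acyl chain, Elovl1 was at 29.48 and 37.33 TPM in the P209L controls and at 25.18, 23.53 and 19.39 TPM in P209L mice. Both controls were above every mutant, with a log2 difference of -0.54 ± 0.22 (SE, adjusted p = 0.575, limma). Elovl7 was at 6.72 and 7.93 TPM in the controls and at 5.58, 5.30 and 4.93 TPM in P209L mice. Its 3 mutant values lay closer together than its control values, and the log2 difference was -0.41 ± 0.14 (adjusted p = 0.449, limma). Fa2h was at 10.88 and 16.05 TPM in the controls and at 8.90, 8.22 and 6.61 TPM in P209L mice. It had the largest difference of the 6 genes (log2 difference -0.68 ± 0.24, adjusted p = 0.491, limma), and its 2 controls were 5.17 TPM apart.

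Cers2, the ceramide synthase, was at 52.82 and 64.94 TPM in the P209L controls and at 42.04, 47.49 and 41.48 TPM in P209L mice. It had the smallest p of the 6 (log2 difference -0.42 ± 0.13, adjusted p = 0.389, limma). Of the head group enzymes, the galactosyltransferase Ugt8a was at 30.54 and 38.12 TPM in the controls and at 29.58, 27.15 and 23.81 TPM in P209L mice. The highest mutant and the lower control were close, and Ugt8a was the gene that missed the unadjusted threshold as well (log2 difference -0.34 ± 0.20, adjusted p = 0.796, limma). The sulfotransferase Gal3st1 was at 11.51 and 13.29 TPM in the controls and at 8.71, 10.51 and 10.11 TPM in P209L mice (log2 difference -0.31 ± 0.13, adjusted p = 0.597, limma).

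P209L control 2 was the higher control for all 6 genes, and the size of these differences depended on it. Without it all 6 genes were still lower in P209L, but none reached an unadjusted p under 0.05. Fa2h then differed by -0.42, Elovl1 by -0.37, Elovl7 by -0.30, Cers2 by -0.27, Gal3st1 by -0.22 and Ugt8a by -0.19 on the log2 scale. Without P209L control 1 the differences were larger, from -0.41 for Gal3st1 to -0.95 for Fa2h. Without KO control 1, which enters only through the shared spread, all 6 genes reached the unadjusted threshold and none the adjusted one.

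**Figure D1:**
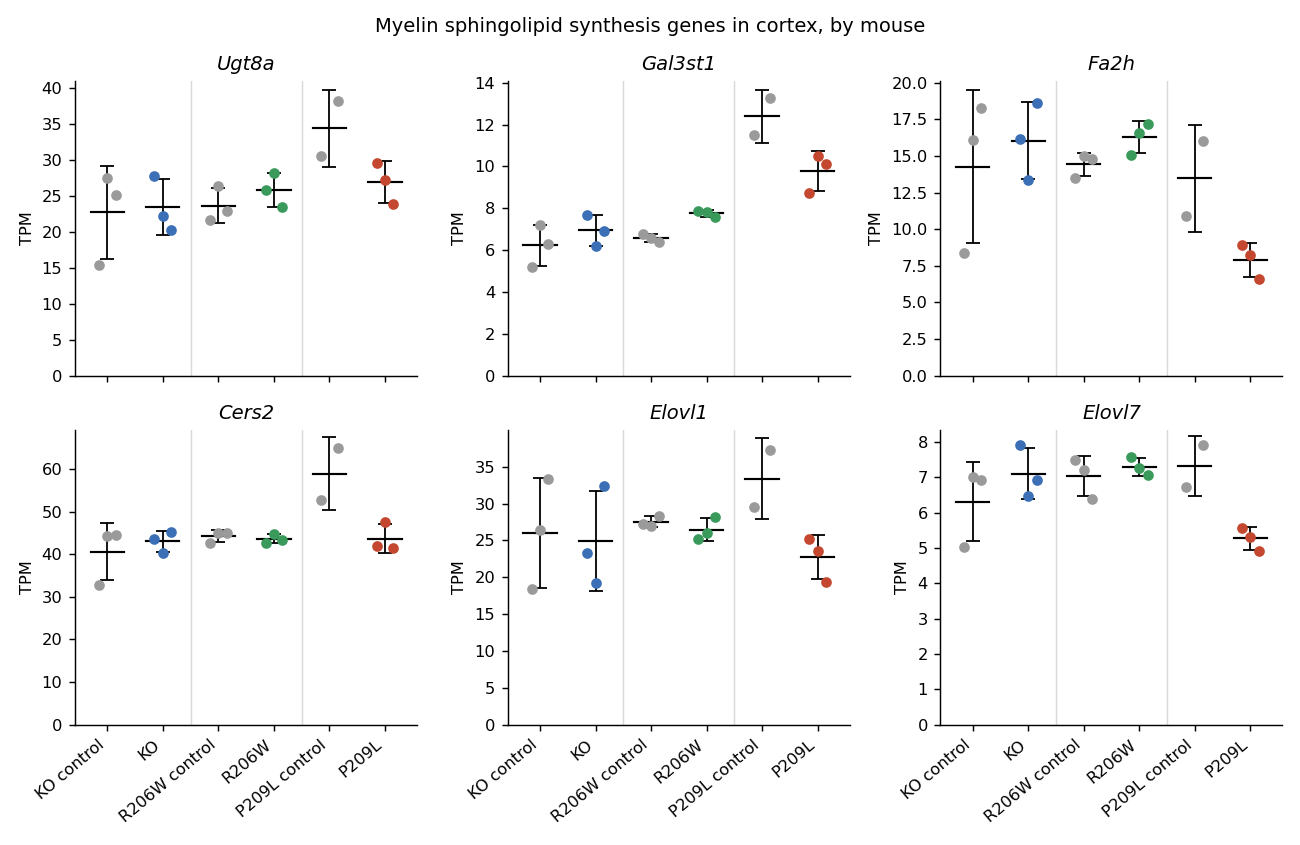
TPM of each gene (vertical axis, from 0) in each mouse, by group (horizontal axis), with points for mice, horizontal lines for group means and bars for 1 SD (n = 3, or 2 for P209L controls). The P209L mice lie below both P209L controls in all 6 panels, and KO control 1 is the lowest 8-week mouse for each gene.

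The mature oligodendrocyte markers were lower in P209L mice as well. All 12 were lower with no overlap and with an unadjusted p under 0.05, with a median log2 difference of -0.84 (range -1.08 to -0.61), against a median of -0.41 over the 6 genes and of 0.02 over all genes. The markers summed to 4377 and 6538 TPM in the 2 controls and to between 2631 and 3745 TPM in the P209L mice. Mbp was at 1495 against 2473 TPM (group means) and Mobp at 376 against 703 TPM, and none of the 12 passed the adjusted threshold. The mean of the markers on the log2 scale differed by -0.83, by -0.59 without P209L control 2 and by -1.07 without P209L control 1. All 12 were still lower without P209L control 2, but 4 of them reached an unadjusted p under 0.05. The part of the markers' difference in that of the 6 genes was not tested.

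Markers of other cells and stages had smaller median differences. All 6 lineage factors of oligodendrocytes (such as Olig2 and Sox10) were lower in P209L, 3 of them at an unadjusted p under 0.05, with a median log2 difference of -0.50 and sums of 56.9 to 68.3 TPM against 77.2 to 109 TPM in the controls. All 8 markers of precursor and newly formed oligodendrocytes (such as Pdgfra and Enpp6) were lower, none at an unadjusted p under 0.05 (median -0.33, sums of 48.2 to 68.6 against 72.5 to 91.1 TPM). Lower values in all markers were also seen for microglia (6 genes, median -0.17, sums of 193 to 218 against 195 to 271 TPM), brain endothelial cells (5 genes, median -0.26, 162 to 196 against 188 to 212 TPM) and leptomeningeal fibroblasts (6 genes, median -0.43, 22.3 to 43.0 against 34.6 to 37.4 TPM). Of these, 1 microglia, 2 endothelial and 4 leptomeningeal markers were lower with no overlap, where 10.7% of all genes were. An unadjusted p under 0.05 was reached by 1 microglia, 0 endothelial and 1 leptomeningeal marker, against 2.90% of all genes with a lower level. The medians were 0.02 for 8 cortical neuron markers, with sums of 2570 to 3132 against 2721 to 3000 TPM, and -0.03 for 6 astrocyte markers, with sums of 406 to 595 against 453 to 548 TPM.

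Set against the mean of the 12 mature markers in the same mouse, the 6 genes were higher in P209L. This relative level, the log2 level of the gene minus the marker mean, differed by 0.14 for Fa2h, 0.29 for Elovl1, 0.41 for Cers2, 0.42 for Elovl7, 0.49 for Ugt8a and 0.51 for Gal3st1. No P209L mouse overlapped a control for any of the 6, but the same was true of 90.0% of all genes, since the subtracted marker mean itself differed between the groups. Fa2h was the member closest to the markers in its difference. Ugt8a and Gal3st1 were the farthest from them, with Elovl7 and Cers2 near Ugt8a. This order was not tested, and the log2(TPM + 1) scale understates differences of low genes such as Gal3st1.

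**Figure D2:**
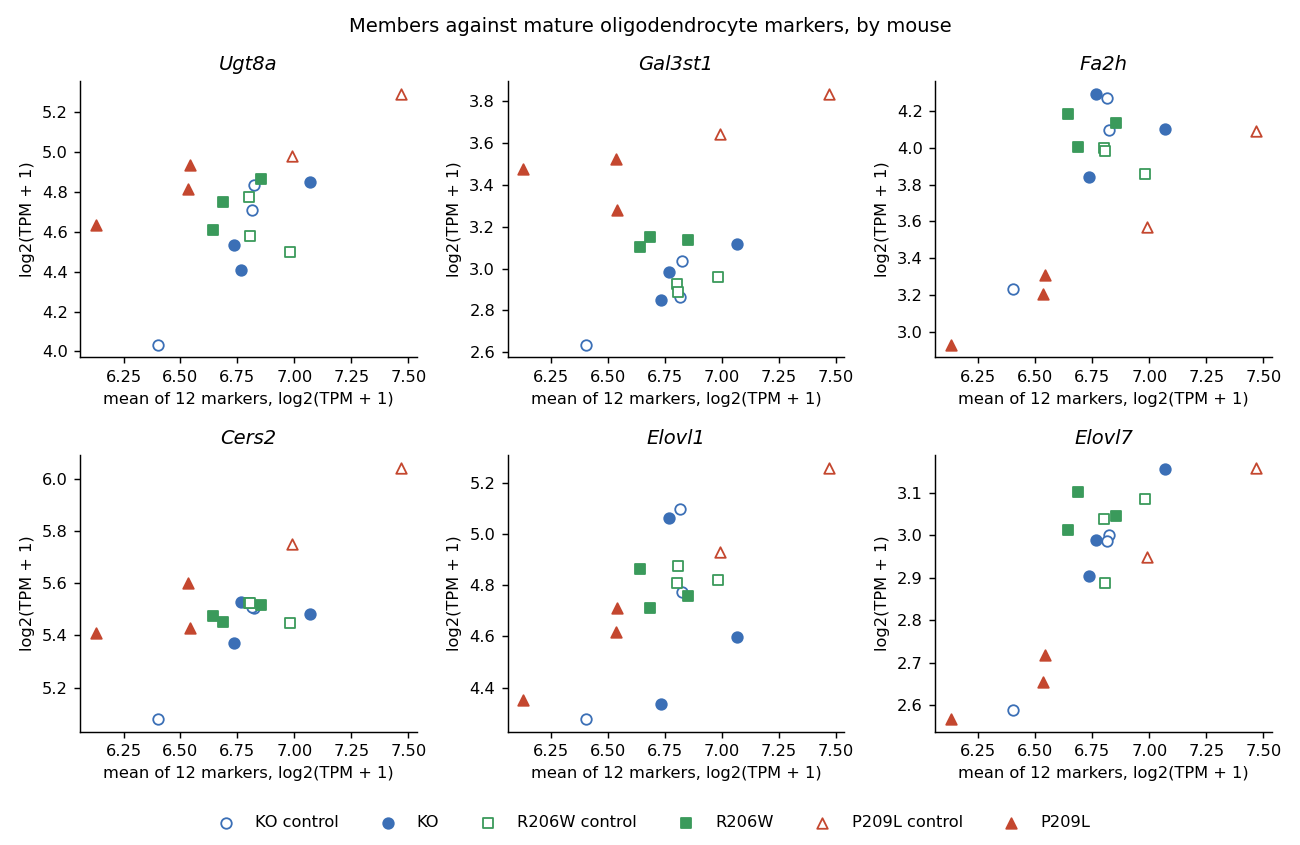
Log2(TPM + 1) of each gene (vertical axis) against the mean log2(TPM + 1) of 12 mature oligodendrocyte markers (horizontal axis) in the 17 mice, with open symbols for controls, filled symbols for mutants, and axes that do not start at 0. P209L mice lie at 6.13 to 6.54 on the marker axis, where KO control 1 also lies at 6.40. P209L controls lie at 6.99 and 7.47, with KO 1 between them at 7.07. For Gal3st1 the P209L mice are above every 8-week mouse although their markers are low.

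In KO cortex none of the 6 genes passed the test against the KO controls. The groups overlapped for all 6, the lowest unadjusted p was 0.219 (Elovl7), and each adjusted p was 0.999 (limma), where 0.00615% of all genes passed the adjusted threshold and 4.08% an unadjusted p under 0.05. Elovl1 was at 18.39, 26.39 and 33.28 TPM in the controls and at 23.24, 19.21 and 32.43 TPM in KO mice, a log2 difference of -0.05 (95% interval -0.47 to 0.36). Fa2h was at 8.38, 16.12 and 18.29 TPM in the controls and at 16.17, 13.34 and 18.62 TPM in KO mice, a log2 difference of 0.21 (-0.25 to 0.68). The low control in both genes was KO control 1.

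The other 4 genes had the same low control mouse. Cers2 was at 32.81, 44.36 and 44.57 TPM in KO controls and at 43.67, 40.35 and 45.19 TPM in KO mice. Ugt8a was at 15.37, 27.48 and 25.13 TPM in KO controls and at 27.78, 22.14 and 20.23 TPM in KO mice. Their log2 differences were 0.10 (95% interval -0.16 to 0.35) and 0.07 (-0.32 to 0.46). Gal3st1 was at 5.21, 7.19 and 6.28 TPM in KO controls and at 7.68, 6.21 and 6.92 TPM in KO mice, with a log2 difference of 0.14 (-0.11 to 0.39). Elovl7 was at 5.02, 7.0 and 6.92 TPM in KO controls and at 7.91, 6.48 and 6.94 TPM in KO mice, with a log2 difference of 0.16 (-0.10 to 0.42). Without KO control 1 the differences of Ugt8a, Fa2h and Cers2 turned to -0.17, -0.10 and -0.05, those of Gal3st1 and Elovl7 moved to 0.04 and 0.02 and that of Elovl1 to -0.27, and still none passed. The mature markers had a median log2 difference of 0.17 in KO mice, with none at an unadjusted p under 0.05, and sums of 3361 to 4300 TPM against 2828 to 3682 TPM in the controls.

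In R206W cortex, too, no member passed the test or reached an unadjusted p under 0.05 in the main fit. The adjusted p was 1 for all 6 (limma), where 0.0369% of all genes passed the adjusted threshold and 2.19% an unadjusted p under 0.05. The sulfotransferase Gal3st1 was at 6.78, 6.59 and 6.39 TPM in the controls and at 7.88, 7.80 and 7.58 TPM in R206W mice. The mice of each group lay within 0.39 TPM of each other, the groups did not overlap, and R206W was at 118% of the control mean (log2 difference 0.21 ± 0.12, 95% interval -0.04 to 0.46). Fa2h was at 13.50, 14.97 and 14.80 TPM in the controls and at 15.07, 16.55 and 17.19 TPM in R206W mice. Its groups were separate by 0.1 TPM (log2 difference 0.16 ± 0.22, 95% interval -0.30 to 0.63). Higher values with no overlap were seen in 8.09% of all genes.

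The other 4 genes overlapped between R206W mice and controls. Ugt8a was at 21.62, 26.34 and 22.84 TPM in the controls and at 25.83, 28.11 and 23.37 TPM in R206W mice (log2 difference 0.12, 95% interval -0.26 to 0.51). Cers2 was at 42.69, 45.04 and 45.0 TPM in the controls and at 42.71, 44.76 and 43.46 TPM in R206W mice (-0.02, -0.27 to 0.24). Elovl1 was at 27.29, 27.00 and 28.37 TPM in the controls and at 25.20, 26.07 and 28.16 TPM in R206W mice (-0.06, -0.47 to 0.36). Elovl7 was at 7.49, 7.22 and 6.4 TPM in the controls and at 7.58, 7.26 and 7.07 TPM in R206W mice (0.05, -0.21 to 0.31). The mature markers had lower values in R206W mice for all 12 genes, none at an unadjusted p under 0.05 (median -0.13, sums of 3097 to 3843 against 3627 to 3966 TPM).

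The effects of the 3 lines were then compared by testing the differences between them. These tests use the same P209L mice, so they are not independent of each other or of the P209L result. The P209L effect was lower than the KO effect for all 6 genes, and 4 reached an unadjusted p under 0.05, against 4.69% of all genes: Elovl7 (-0.56 ± 0.18), Cers2 (-0.51 ± 0.18), Fa2h (-0.90 ± 0.33) and Gal3st1 (-0.46 ± 0.18 on the log2 scale). None passed the adjusted threshold (adjusted p from 0.44 to 0.73, limma), which 0.0492% of all genes passed. The P209L effect was also lower than the R206W effect for all 6, and the same 4 genes reached an unadjusted p under 0.05, against 1.56% of all genes. Gal3st1 differed by -0.52 ± 0.18, Fa2h by -0.85 ± 0.33, Elovl7 by -0.46 ± 0.18 and Cers2 by -0.40 ± 0.18. Their adjusted p was 0.9996 (limma), and 0% of all genes passed the adjusted threshold. Without P209L control 2 none of the 6 reached an unadjusted p under 0.05 in either comparison, although all were still lower, and Cers2 differed from the R206W effect by -0.25. Without KO control 1, all 6 were still lower than the KO effect, but by less. Fa2h then differed by -0.58, Elovl1 by -0.27 (-0.49 with that mouse) and Ugt8a by -0.17 (-0.41 with that mouse). Between the R206W and KO effects none of the 6 passed, where 0.0307% of all genes did, and the lowest unadjusted p was 0.507.

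**Figure D3:**
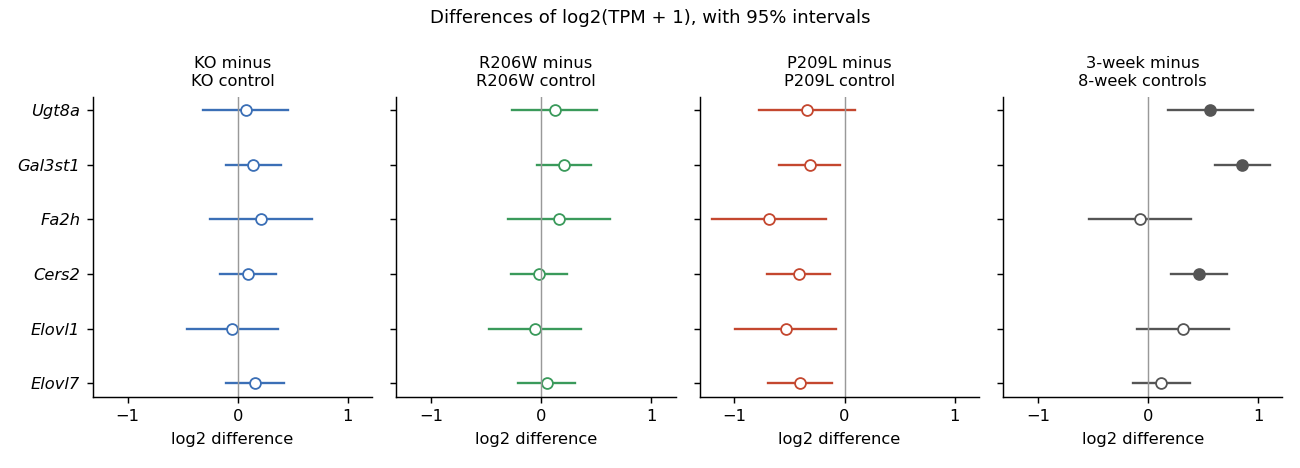
Difference of log2(TPM + 1) (horizontal axis, log2 scale) for each gene (vertical axis) in 4 comparisons, with lines for 95% intervals from limma and filled points for an adjusted p under 0.05. The P209L differences lie between -0.68 and -0.31 with no filled point, and the age comparison has filled points for Ugt8a, Gal3st1 and Cers2.

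The wild-type mice were compared between ages, the 2 P209L controls of 3 weeks against the 6 controls of 8 weeks, whose 2 groups had equal weight. The same 2 mice serve as controls for P209L, so the values here and those for P209L share them. Higher levels at 3 weeks were found for Gal3st1 (193.5% of the 8-week mean), Ugt8a (148%) and Cers2 (139%). Elovl1, Elovl7 and Fa2h did not pass the test on the TPM scale, and differences between the members were not tested. Of all genes, 36.1% passed the adjusted threshold in this comparison, 11.3% with a higher and 24.8% with a lower level at 3 weeks.

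Gal3st1 was at 11.51 and 13.29 TPM at 3 weeks, where the 6 control mice of 8 weeks were between 5.21 and 7.19 TPM. Its log2 difference of 0.86 ± 0.12 had an adjusted p of 0.000109 (limma). Cers2 was at 52.82 and 64.94 TPM at 3 weeks against 32.81 to 45.04 TPM at 8 weeks (log2 difference 0.46 ± 0.12, adjusted p = 0.00763). Ugt8a was at 30.54 and 38.12 TPM at 3 weeks against 15.37 to 27.48 TPM at 8 weeks (0.56 ± 0.18, adjusted p = 0.0248). For these 3 genes no 3-week control overlapped an 8-week control, and 16.7% of all genes were higher at 3 weeks in this way.

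Elovl1, at 29.48 and 37.33 TPM against 18.39 to 33.28 TPM, overlapped between ages (0.32 ± 0.19, adjusted p = 0.215, limma). Elovl7 overlapped as well, at 6.72 and 7.93 TPM against 5.02 to 7.49 TPM (0.12 ± 0.12, adjusted p = 0.457). Fa2h was at 10.88 and 16.05 TPM at 3 weeks against 8.38 to 18.29 TPM at 8 weeks, and its log2 difference of -0.07 ± 0.22 (adjusted p = 0.814) turned to 0.06 after rescaling by median-of-ratios size factors and to 0.10 with quantile normalization. The median of all genes was -0.12 on the TPM scale in this comparison and 0.00 after size factors, and the higher genes made up 31.3% of the calls on the TPM scale and 48.8% after size factors. On the latter scale Gal3st1 differed by 0.99, Ugt8a by 0.70, Cers2 by 0.60, Elovl1 by 0.46 and Elovl7 by 0.25, and Elovl1 then passed too, so that 4 genes did (adjusted p = 0.0315, limma). With quantile normalization both Elovl1 (0.48, adjusted p = 0.0234) and Elovl7 (0.28, adjusted p = 0.0376, limma) passed, so that 5 genes did.

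These calls rested on 2 mice of 3 weeks. Without P209L control 2, Gal3st1 alone passed the threshold, and without P209L control 1, Gal3st1 and Cers2 passed. In a fit on the control groups alone Gal3st1 alone passed (adjusted p = 0.00486), with adjusted p = 0.0504 for Cers2 and 0.0837 for Ugt8a (limma). With no filter on low genes Ugt8a did not pass either (adjusted p = 0.056, limma). Between the control groups of the R206W and KO lines, both of 8 weeks, none of the 6 passed, and the lowest unadjusted p was 0.254. The share of all genes that passed in that comparison was 0%.

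Mature oligodendrocyte markers also differed between ages. Of the 12, 7 passed with a higher level at 3 weeks, among them Mbp (2473 against 1598 TPM), and the marker mean differed by 0.46 on the log2 scale. The list did not move as one, since 3 markers were lower at 3 weeks and none of these passed. Ermn (18.0 against 24.3 TPM, log2 difference -0.41, adjusted p = 0.0937) and Aspa (13.80 against 17.03 TPM, -0.27, adjusted p = 0.322, limma) had no overlap between ages, and Trf was at 126 against 135 TPM. Mobp was at 703 against 532 TPM and did not pass (adjusted p = 0.193, limma). Their sums were 4377 and 6538 TPM at 3 weeks and between 2828 and 3966 TPM at 8 weeks. Relative to the marker mean Gal3st1 was higher at 3 weeks by 0.40 with no overlap, as were 0.879% of all genes. Ugt8a (0.11), Cers2 (0.01) and Elovl1 (-0.14) overlapped. Fa2h was lower by -0.53 and Elovl7 by -0.34, each with no overlap, as were 60.3% of all genes. Both shares depend on the subtraction, since the marker mean was itself higher at 3 weeks. Without the subtraction, 16.7% of all genes were higher at 3 weeks with no overlap.

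Markers of other cells differed between ages too. All 8 cortical neuron markers were lower at 3 weeks, 5 of them past the adjusted threshold (median log2 difference -0.58), with sums of 2721 and 3000 TPM against 3005 to 5397 TPM in the KO controls and 4858 to 5095 TPM in the R206W controls. All 6 astrocyte markers were lower, 3 of them past the threshold (median -0.42). Of 8 markers of precursor and newly formed oligodendrocytes 7 were higher, 3 of them past the threshold (median 0.48), with sums of 72.5 and 91.1 TPM against 44.7 to 73.9 and 60.7 to 69.0 TPM. None of the 6 lineage factors passed (median 0.12). Among 6 microglia markers 1 was higher and 2 were lower, among 5 endothelial markers 1 was higher and 1 lower, and among 6 leptomeningeal markers 1 was lower. The part of these markers, and of the mature markers, in the age differences was not tested.

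The order of the group means shows both patterns. For Gal3st1 the P209L controls were highest at 12.4 ± 1.26 TPM (SD, n = 2), followed by P209L mice at 9.78 ± 0.95 TPM, R206W at 7.75 ± 0.16, KO at 6.94 ± 0.74, R206W controls at 6.59 ± 0.20 and KO controls at 6.23 ± 0.99 TPM (n = 3 each). P209L controls did not overlap P209L mice, nor did P209L mice overlap R206W mice, and the later neighbours overlapped. P209L mice thus had more Gal3st1 than any 8-week group while having less than their own controls. For Ugt8a the order began in the same way, with 34.3 ± 5.36 TPM in P209L controls and 26.9 ± 2.90 TPM in P209L mice, and from P209L mice on every neighbour overlapped the next.

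Fa2h and the elongases had another order, with P209L mice in the last place. Fa2h was at 16.3 ± 1.09 TPM in R206W, 16.0 ± 2.64 in KO, 14.4 ± 0.80 in R206W controls, 14.3 ± 5.21 in KO controls, 13.5 ± 3.66 in P209L controls and 7.91 ± 1.18 TPM in P209L mice. Of these neighbours, only P209L controls and P209L mice did not overlap. Elovl7 ranged from 7.33 ± 0.86 TPM in P209L controls to 5.27 ± 0.33 TPM in P209L mice, and all its neighbours in the order overlapped. Elovl1 was at 33.4 ± 5.55 TPM in P209L controls, above every mouse of the next group (R206W controls, 27.6 ± 0.72 TPM), and its other neighbours overlapped down to P209L mice at 22.7 ± 2.98 TPM. Cers2 was at 58.9 ± 8.57 TPM in P209L controls and between 40.6 ± 6.73 and 44.2 ± 1.34 TPM in the means of the other 5 groups, whose neighbours overlapped.

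The genes varied together between mice. Over the 17 mice, Pearson's r of log2 levels was 0.831 between Cers2 and Ugt8a, 0.874 between Fa2h and Elovl7, and -0.273 between Fa2h and Gal3st1. After each group's mean was removed, all 15 pairs were positively related, from r = 0.405 (Gal3st1 and Elovl1) to 0.919 (Fa2h and Elovl1), and Fa2h and Gal3st1 stood at 0.573. The points share library composition, age and line, and KO control 1 is low in all 6 genes. With the mean of the 12 mature markers, r over the 17 mice was 0.826 for Elovl7, 0.719 for Cers2, 0.691 for Elovl1, 0.655 for Fa2h, 0.562 for Ugt8a and 0.258 for Gal3st1. After each group's mean was removed, these were 0.845 for Elovl7, 0.730 for Cers2, 0.561 for Elovl1, 0.721 for Fa2h, 0.795 for Ugt8a and 0.597 for Gal3st1.

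Of all other genes tested, those most like Ugt8a over the 17 mice included Prom1 (r = 0.886) and Mog (0.841), which encodes a myelin protein. Those most like Cers2 included Cnp (0.929), also a gene of the myelin sheath, and Sirt2 (0.897). For Elovl7 they were Erbb3 (0.910), Mag (0.895), a myelin glycoprotein of the axon-facing surface, and Nkx6-2 (0.885), a transcription factor of the oligodendrocyte lineage. For Fa2h they were Plekhh1 (0.969), Slc7a10 (0.957) and Trf (0.954), which encodes transferrin. Elovl1 was closest to Epha8 (0.912), Plch2 (0.895) and Msantd2 (0.894). Gal3st1 was closest to Gm26901 (0.955), Gstz1 (0.949) and Kif19a (0.947). After each group's mean was removed, r with Gal3st1 was 0.772, 0.774 and 0.665 for these genes. The r over the 17 mice includes differences between ages and lines.

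The rest of the sphingolipid pathway was represented by 53 genes in 5 lists, of which 49 were tested. In P209L mice none of the 49 passed the adjusted threshold, and their median log2 difference was 0.06, against -0.41 over the 6 genes and 0.02 over all genes. An unadjusted p under 0.05 was reached by 2 with a higher level, against 4.56% of all genes, and by 0 with a lower level. These were St3gal2, a ganglioside sialyltransferase (35.01 against 28.3 TPM, log2 difference 0.30, adjusted p = 0.554), and Acer3, an alkaline ceramidase (9.59 against 7.69 TPM, 0.29, adjusted p = 0.575, limma). In the list of ceramide backbone synthesis, the smallest p values were those of Sptlc2, a subunit of serine palmitoyltransferase (29.4 against 22.8 TPM, 0.32), and Ormdl3, a regulator of that enzyme (45.5 against 38.7 TPM, 0.22).

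In the other lists no gene passed in P209L mice either, and the 6 genes named next had adjusted p values between 0.725 and 0.931 (limma). Cers1, the main ceramide synthase of neurons, was at 30.4 against 38.7 TPM (log2 difference -0.34) and Cers4 at 31.9 against 28.3 TPM (0.17). Hsd17b12, the ketoreductase of the elongation cycle, was at 62.5 against 73.7 TPM (-0.25), and the dehydratase Hacd4 was at 1.16 against 1.59 TPM (-0.26). Ugcg, which adds glucose rather than galactose to ceramide, was at 41.5 against 33.7 TPM (0.29), and the ceramidase Acer2 at 2.75 against 3.96 TPM (-0.41). In KO mice the sphingomyelinase gene Smpd2 reached an unadjusted p under 0.05 (16.0 against 11.5 TPM, 0.44, adjusted p = 0.931, limma). In R206W mice St3gal2 was at 59.8 against 47.5 TPM (0.33), Hacd2 at 24.7 against 30.8 TPM (-0.31) and Acer3 at 9.22 against 11.5 TPM (-0.28), each at an unadjusted p under 0.05. None of these passed after adjustment.

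Between ages 17 of the 49 pathway genes passed, 3 with a higher and 14 with a lower level at 3 weeks. Of all genes 36.1% passed, 11.3% with a higher and 24.8% with a lower level, so the count of 17 was near that share. The pathway median was -0.18, against 0.39 over the 6 genes and -0.12 over all genes. The count depended on single mice, with 1 higher and 7 lower without P209L control 2, 2 and 10 without P209L control 1, 4 and 22 without KO control 1, and 4 and 24 with sample weights. The list of sphingomyelin and ganglioside synthesis held 7 lower genes and 1 higher among 12. Its smallest p values were those of St3gal2 (28.3 TPM at 3 weeks against 46.8 TPM at 8 weeks, log2 difference -0.71, adjusted p = 0.000179), the ceramide phosphoethanolamine synthase Samd8 (20.1 against 35.3 TPM, -0.77, adjusted p = 0.000546), Col4a3bp, which encodes the ceramide transfer protein (25.1 against 39.3 TPM, -0.62, adjusted p = 0.000961), and the sialyltransferase St8sia1 (6.36 against 13.1 TPM, -0.91, adjusted p = 0.00106, limma). The 7 included the sphingomyelin synthase Sgms1 and Ugcg, and the higher gene was B3galt4.

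Among 10 elongation enzymes tested, the dehydratase Hacd1 was higher at 3 weeks (22.7 against 14.1 TPM, log2 difference 0.66, adjusted p = 0.000472), and Hacd2 (19.9 against 27.6 TPM, -0.44), Elovl5 (29.2 against 41.1 TPM, -0.47) and Elovl6 (19.2 against 26.0 TPM, -0.40) were lower. Of 4 other ceramide synthases tested, Cers6 was lower (14.9 against 26.3 TPM, -0.75, adjusted p = 0.00257, limma), in the direction opposite to Cers2. Of 13 genes of galactolipid and ceramide breakdown, Smpd2 was higher (18.1 against 12.3 TPM, 0.53) and the ceramidases Asah1 (40.5 against 54.3 TPM, -0.41), Asah2 (3.10 against 6.54 TPM, -0.84) and Acer3 (7.69 against 10.1 TPM, -0.35) were lower. None of the 10 genes of backbone synthesis passed on the TPM scale. After size factors 5 pathway genes were higher and 12 lower, after quantile normalization 8 and 12, and Asah1 and Acer3 then did not pass. With quantile normalization the backbone genes Sptlc1 (0.23, adjusted p = 0.0268) and Ormdl3 (0.19, adjusted p = 0.0448, limma) passed with a higher level at 3 weeks. Cers5, at 38.3 against 33.4 TPM with no overlap and an adjusted p of 0.275 (limma) on the TPM scale, passed as higher after size factors (0.35) and quantile normalization (0.36).

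**Figure D4:**
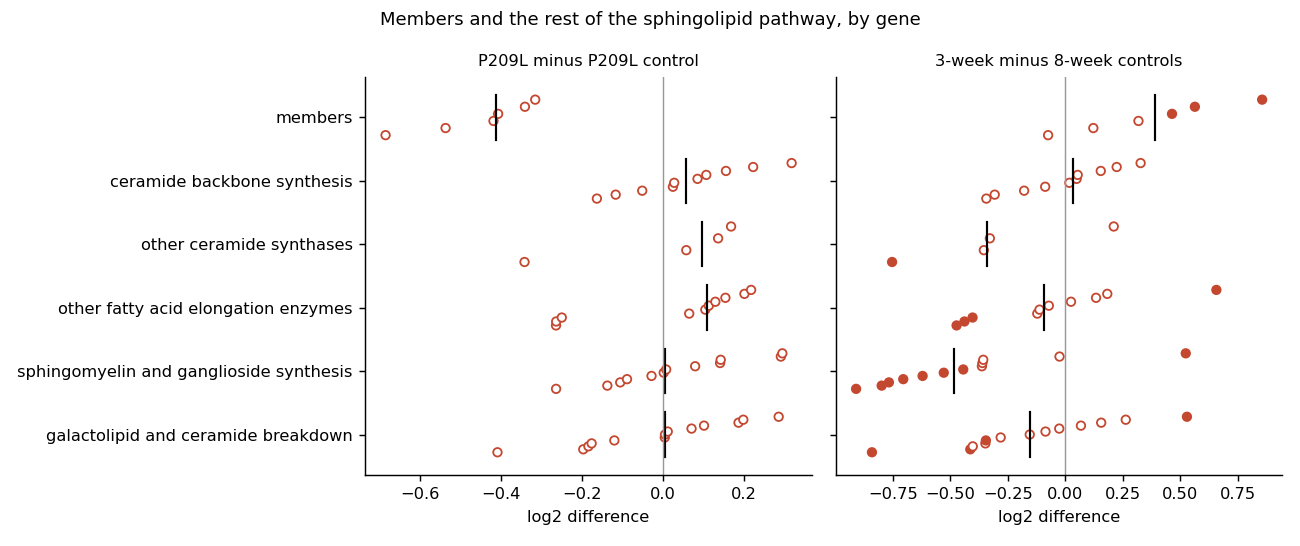
Difference of log2(TPM + 1) (horizontal axis, log2 scale) of each gene, by list (vertical axis), for P209L against its controls on the left and for 3-week against 8-week controls on the right, with filled points for an adjusted p under 0.05 and black bars for list medians. The members lie to the left of 0 in P209L and, apart from Fa2h at -0.07 (above 0 after size factors or quantile normalization), to the right of 0 at 3 weeks, while most points of sphingomyelin and ganglioside synthesis lie to the left of 0 at 3 weeks.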

How the data were processed

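RNA-seq of bulk cortex (TruSeq Stranded Total RNA) was analysed for 17 mice in 6 groups. The deposited values are TPM, which the authors computed per gene; the submitters' processing notes name Trim Galore, STAR 2.7.1a, GATK 4.0.4.0, RSEM and build mm10. Each column summed to 1000000 TPM, so depth is unknown and a TPM also depends on the abundance of all other genes. Rows repeating a symbol (120) were summed. Genes with a mean of at least 1 TPM (16265) were analysed as log2(TPM + 1), and fold changes on this scale understate those of low genes. Group means were estimated from all 17 mice in limma (version 3.58.1, R 4.3.3) by lmFit, followed by contrasts.fit and eBayes with an intensity trend, with two-sided tests and Benjamini-Hochberg adjustment over all genes of each contrast, at a threshold of 0.05. P-values measure the spread between mice. The script was tested on simulated data. Alternatives were other pseudocounts, filters and scalings, sample weights, own groups only, a replicate block and leaving out each mouse.

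The members and gene lists were chosen with earlier results of these data known. All members are named throughout; from each list the genes past the threshold (at most 4, smallest p), or otherwise the 2 with the smallest p, and, for each member, the 3 genes with the highest correlation. A gene that these rules also name is not reported here. Pathway lists held 53 genes, of which Sptlc3, Cers3, Elovl3 and Acer1 were not tested, and Cert1 was listed as Col4a3bp. The labels do not say that replicate numbers pair mice, and the main fit used no pairing.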

Additional observations from a re-analysis of the deposited data

Results flagged for a closer look

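Gal3st1 and Fa2h stood out because all 3 R206W mice were above all R206W controls and all 3 P209L mice were below both P209L controls. All 6 members were lower with no overlap in P209L, as were 10.7% of all genes. Higher values with no overlap in R206W were found for 8.09% of all genes, and genes with both patterns were not counted. The P209L effect minus the R206W effect was -0.52 for Gal3st1 and -0.85 for Fa2h on the log2 scale. This test of the difference did not pass after adjustment over all genes (adjusted p = 0.9996 for both, limma). The R206W mice were 8 weeks old and the P209L mice 3 weeks, so line and age cannot be told apart in it. With groups of 2 or 3 mice, no search for outlying mice within a group was made.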

How the results depend on the processing

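No member passed the adjusted threshold in KO, R206W or P209L mice, or between their effects, under any alternative run, and all 6 were lower in P209L under each. In R206W mice 1 member reached an unadjusted p under 0.05 with size factors, quantile normalization, sample weights or own groups only. Gal3st1 differed there by 0.20 ± 0.091 with size factors and by 0.21 ± 0.065 (SE) on own groups. The share of all genes at that level was not counted under these settings. In the KO comparison Ugt8a turned to -0.0009 with size factors and -0.048 with sample weights, and Fa2h (-0.056) and Cers2 (-0.038) turned with weights. Leaving out each mouse in turn gave log2 differences in KO of -0.17 to 0.23 (Ugt8a), -0.10 to 0.42 (Fa2h), -0.047 to 0.17 (Cers2) and -0.27 to 0.14 (Elovl1), of -0.0092 to 0.090 for Elovl7 in R206W, and of -0.34 to 0.19 for Fa2h between ages. Fa2h between ages was 0.059 with size factors and 0.10 with quantile normalization. The members called between ages numbered 3, 5 with quantile normalization, 1 in the fit on own groups only, and 1 to 3 with each mouse left out. In the comparisons of the R206W and KO effects and of their controls, members changed sign in 22 of 156 and 18 of 150 settings, and 0 passed.

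With the replicate block, 0 members passed in each line, and 3 reached an unadjusted p under 0.05 in P209L, against 5 without it. Mice of a line that share a replicate number had deviations correlated at -0.11 to 0.33, below 0.1 for most. The labels state no pairing, so none is used, but these values do not show that the mice were unpaired. Over all genes, P209L calls numbered 16, with 66 under size factors, 58 under quantile normalization, 72 with sample weights, 52 with no filter, 6 on own groups, 9 with the block and 8 to 68 with each mouse left out. KO calls numbered 1, and 2138 with sample weights, in which KO control 1 had a weight of 0.0819. R206W calls numbered 6, and 149 with weights. Age calls numbered 5876, with 9470 under sample weights and 2719 to 8181 with each mouse left out. The cause of these shifts was not tested. Depth is unknown, and 2 mice at 3 weeks limit both the P209L and the age comparisons.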
